A study of Bos taurus with 16 samples.

Results

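Genes that handle lipoproteins and intracellular lipid were examined in CD14+ cells, which carry the lipopolysaccharide co-receptor of monocytes and macrophages. The genes are apolipoprotein E (APOE), lipoprotein lipase (LPL), the sterol exporters ABCA1 and ABCG1, the high density lipoprotein receptor SCARB1, the fatty acid binding proteins FABP3, FABP4 and FABP5, the lipid droplet protein ADFP, now called PLIN2, and the sterol hydroxylase CYP27A1. They were chosen by name, with earlier results of these data known. They are represented by 11 of the 21475 probes on the array, 2 of them for FABP5. Each probe had 2 spots. ABCG1 and CYP27A1 were found through the description of their probes, ABCA1 through the symbol given in place of an accession, and FABP3 through its accession, since the files call it FABP.

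The cells came from cows (Bos taurus) at days 164, 239, 242 and 248 of pregnancy, numbered animals 1 to 4 in that order. From each, CD14+ cells were sorted by flow cytometry from the endometrium between the placentomes, after it had been dispersed with enzyme, and from the mononuclear cells of blood left in the heart, so that all 8 preparations are from pregnant animals at an abattoir and each cow serves as its own control. By the labels the endometrial preparation was less pure than that of blood. Amplified RNA of both tissues of an animal was labeled with different dyes and put on the same array, 2 arrays for each animal, with the dyes swapped between them in animals 1, 2 and 4 but not in animal 3.

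Macrophages take up lipoproteins and dead cells, and must store, oxidize or export the cholesterol and fatty acid that they receive. APOE is secreted by macrophages and binds receptors of the low density lipoprotein family. ABCA1 and ABCG1 pass cholesterol to lipid-poor and mature high density lipoprotein. The oxysterol receptors LXR, which the oxysterol made by CYP27A1 can activate, are known to raise transcription of APOE, ABCA1, ABCG1 and LPL, and the fatty acid receptors of the PPAR family that of FABP4 and ADFP.

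A level is the mean log2 normalized intensity of a probe over the 2 arrays of an animal, and a log2 ratio is the endometrial level minus the blood level in the same animal. Levels of different probes are not comparable. Ratios were tested against 0 over the 4 animals with limma, for every probe that stood well above background in 4 or more of the 8 channels of either tissue. That left 16653 probes, among them 10 of the 11 considered here. FABP4 was not tested. SCARB1 was tested on account of its endometrial signal alone. A probe counted as differentially expressed when the adjusted p did not exceed 0.05 and the fold change exceeded 2. The same fit was repeated on the log2 values that the authors had normalized themselves, which hold no offset added to the background, and both results are given for every tested probe.

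None of the 10 tested probes was differentially expressed with limma (0 of 10), where 0.0661% of all tested probes were. With the same fold change but an unadjusted p not above 0.05, APOE, CYP27A1 and 1 of the 2 probes of FABP5 passed, all higher in endometrium. That is 3 of 10 probes, against 10.4% of all tested probes in either direction and 5.27% higher in endometrium. With the authors' values, 1 of 10 probes was differentially expressed, APOE, against 1.35% of all tested probes. The median log2 ratio of the 10 probes was 0.64 (1.26 with the authors' values) and that of all tested probes -0.02 (-0.14). The SD of a probe's ratio over the 4 animals had a median of 1.06 for the 10 probes and of 0.68 for all tested probes. The ratio had the same sign in 4 of 4 animals for 4 of 10 probes, against 24.9% of all tested probes. They were APOE, CYP27A1 and the FABP5 probe A_73_108876, all above 0, and ABCG1, below 0. For 0 of 10 probes did the 4 endometrial levels and the 4 blood levels not overlap, while 5.43% of all tested probes had such separate tissues. In bulk samples such as these, fewer cells of a type and less RNA per cell cannot be told apart.

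**Figure D1:**
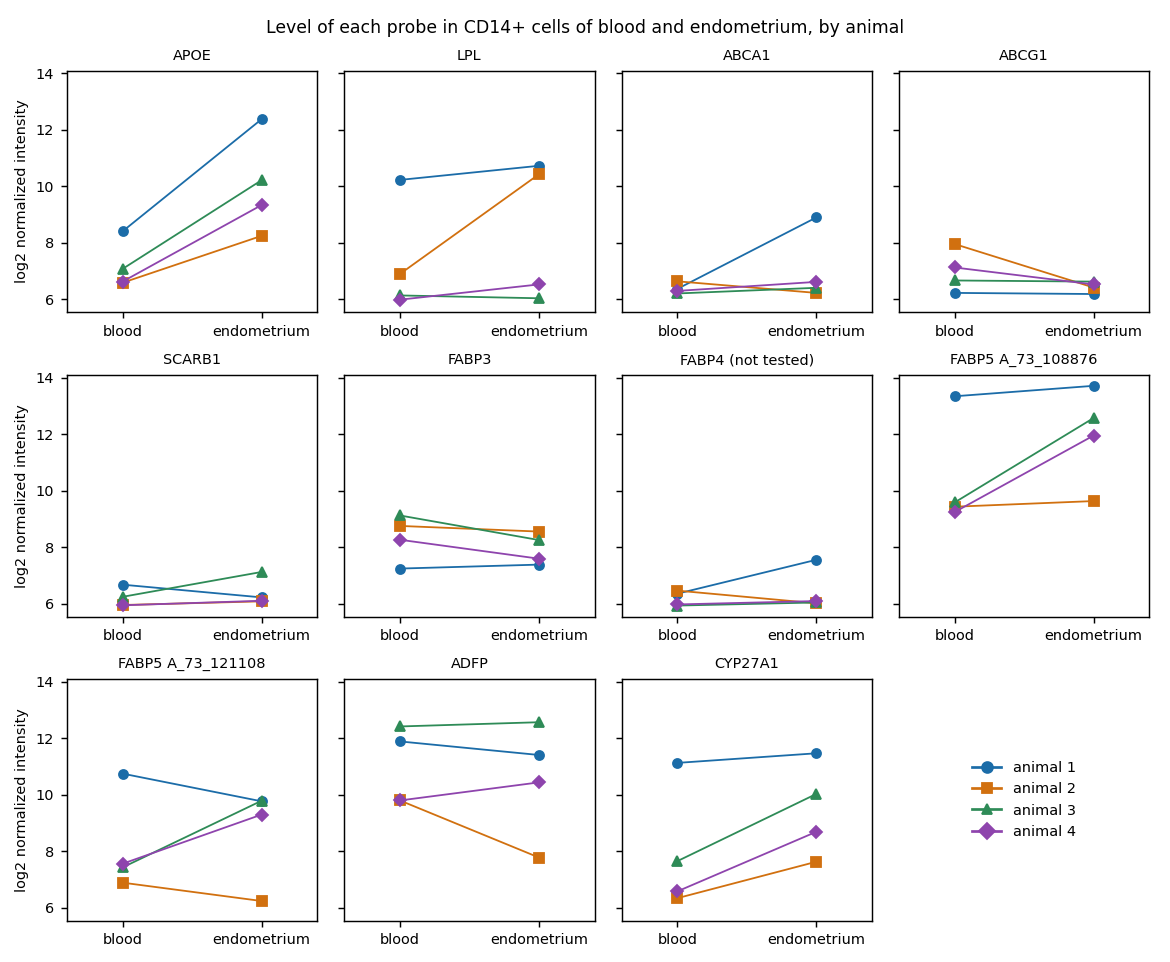
Level (log2 normalized intensity, vertical axis) of each of the 11 probes in CD14+ cells of blood and endometrium, with a line for each of the 4 animals. APOE, CYP27A1 and the FABP5 probe A_73_108876 slope upward from blood to endometrium in 4 of 4 animals, and the 2 tissues overlap in every panel.

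The part of each probe shown here is bases 16 to 45 of its 60 bases, 5′ to 3′, as the scanner files give it. The probes with AATAAA, the usual polyadenylation signal, are printed with that motif in capitals, followed by the 2 probes of FABP5, which did not give the same ratios.
APOE: gggccctagcttAATAAAgatttctcaagc
ABCA1: ttgttataagtcacgaAATAAAgtgatgca
SCARB1: attcacaattgaagtAATAAAcctttttaa
CYP27A1: aaccttgagggaaaatactgAATAAAgggt
FABP5 A_73_108876: acagaaattagctgcgaggatgaacaagct
FABP5 A_73_121108: acgtggctgctgagcatcgggtaagtaaaa
The motif was searched on the strand of the probe only and was found in 4 of the 11 probes (36.4%) and in 11.8% of all 21475 probes. Its first base was at position 28 of the APOE probe, 32 of ABCA1, 31 of SCARB1 and 36 of CYP27A1. The share of G and C ran from 18.3% in SCARB1 to 55.0% in ABCG1, with a median of 43.3% over all probes. The probes of FABP3, FABP4 and FABP5 shared runs of 5 to 7 bases at most, and those of the pair of FABP5 probes 6.

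APOE (NM_173991) was well above background, called detected below, in all 16 channels. Its endometrial levels were 12.38, 8.25, 10.22 and 9.34 in animals 1 to 4, and its blood levels 8.41, 6.59, 7.08 and 6.63. Every animal had more signal in endometrium, although the endometrial level of animal 2 lay under the blood level of animal 1. The log2 ratios were 3.96, 1.66, 3.14 and 2.71, with a mean of 2.87 (SE 0.41), a 7.30-fold difference. The p was 0.00063 before and 0.166 after adjustment with limma. In the authors' values the ratios of the animals were 4.36, 3.14, 4.88 and 4.03, with a mean of 4.10 (SE 0.49, adjusted p = 0.0134), a 17.2-fold difference. The 2 arrays of an animal differed by at most 0.12 in the ratio, and without any 1 of the animals it lay between 2.50 and 3.27.

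The blood cells of animal 1 had the highest APOE level in blood and its endometrial cells the highest in endometrium. CD14 itself followed the same order of animals at the top, with levels of 12.17, 6.41, 8.14 and 6.82 in endometrium and of 14.24, 6.30, 7.63 and 6.69 in blood. The CD14 probe, detected in 8 of 8 channels of either tissue, had a mean ratio of -0.33 (SE 0.48, adjusted p = 0.782). The summed level of 14 monocyte and macrophage markers, all tested, was 17.58 in endometrium and 17.38 in blood in animal 1, against 13.97 to 15.89 and 13.19 to 13.95 in the others. Of the 14, 8 were higher in endometrium at the unadjusted threshold and 0 after adjustment, with C1QA, a complement component made by macrophages, at a log2 ratio of 3.81 (SE 0.47, adjusted p = 0.133).

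Other cell types could add to the signal, and their marker lists did not share a direction. The epithelial list had log2 ratios above 0 for 18 of 18 genes, of which 0 were differentially expressed, led by uterine serpin SERPINA14 at 6.10 (SE 0.51, adjusted p = 0.0589), and summed levels of 13.77 to 16.89 in endometrium and 10.90 to 12.23 in blood. Of 16 tested trophoblast markers 15 were above 0 and 5 were differentially expressed. The one with the largest ratio, the pregnancy-associated glycoprotein PAG10, reached 4.64 (SE 0.43, adjusted p = 0.0701). The summed level was 14 to 15.6 in endometrium and 11.7 to 13.1 in blood. The marker below 0, a probe named PAG1, had a ratio of -2.35 (SE 0.54). Its blood levels of 10.46, 12.69, 11.26 and 11.54 were the highest of the list in each animal and made up much of the blood sum. Whether that probe detects a pregnancy-associated glycoprotein was not tested. Stromal markers were above 0 in 16 of 17, with 7.11, 0.31, 3.17 and 1.61 for decorin, DCN, in animals 1 to 4. Natural killer and T cell markers were above 0 in 11 of 15, with granzyme B, GZMB, at 3.23 (SE 0.86), and endothelial markers in 11 of 13, with von Willebrand factor, VWF, at 1.72 (SE 0.62). The remaining lists went the other way or near 0. B cell markers were above 0 in 0 of 8, with a median of -1.65 and MS4A1 at -3.28 (SE 0.76). Granulocyte markers were above 0 in 2 of 10, with a median of -0.71 and the receptor CSF3R at -1.34 (SE 0.88), and adipocyte markers in 1 of 3, with a median of -0.01 and ADIPOR2 at -0.87 (SE 0.65). With the authors' values, 4 monocyte and macrophage, 7 epithelial, 9 trophoblast, 2 stromal, 1 B cell and 2 granulocyte markers were differentially expressed. None of the endothelial, adipocyte, or natural killer and T cell markers was. Of all tested probes 1.35% were. The part of these cell types in the APOE ratio was not tested. The APOE ratio was highest in animal 1 and lowest in animal 2. In animals 1 to 4 the stromal markers had median ratios of 4.72, -0.06, 1.17 and 0.72. The macrophage markers had median ratios of 0.59, 0.40, 2.48 and 2.73.

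**Figure D2:**
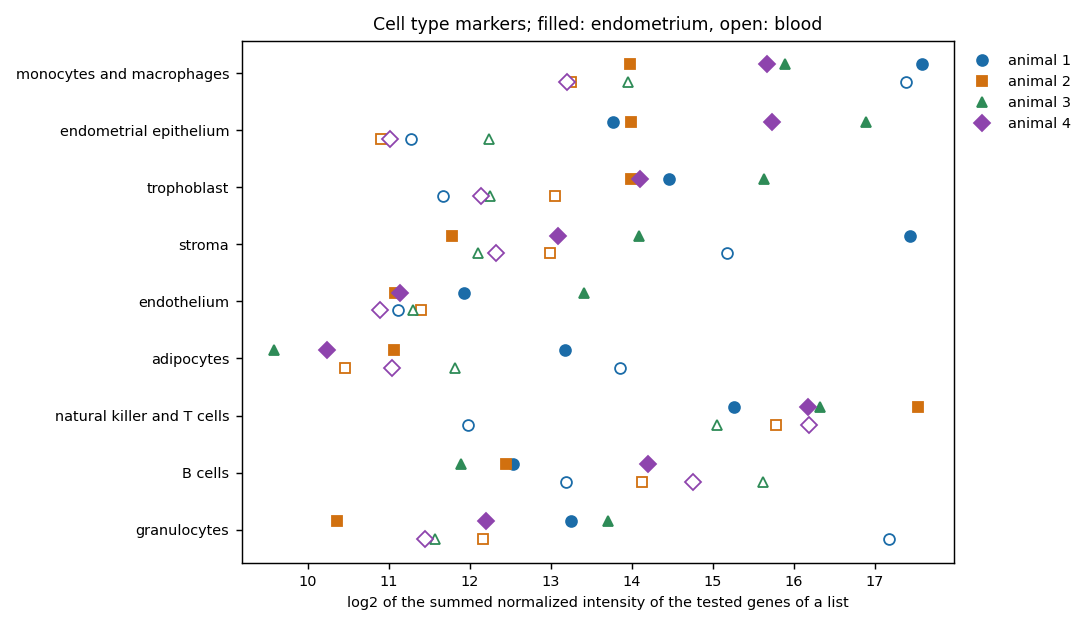
Log2 of the summed normalized intensity (horizontal axis) of the tested genes of 9 marker lists, for endometrium (filled) and blood (open) of the 4 animals. Animal 1 is highest for monocytes and macrophages in both tissues, for stroma in endometrium (17.43) and for granulocytes in blood (17.17). S100A8 and S100A12 made up most of that granulocyte sum.

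The probes whose 8 levels (4 animals, 2 tissues) were most like those of APOE were SLCO2B1, TIMD4 and FKBP7, with Pearson's r of 0.995, 0.987 and 0.986. These points share animals and arrays, and no p was computed. Among the genes described here, APOE was most like FABP5 A_73_108876 (r = 0.84) and CYP27A1 (r = 0.83).

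CYP27A1, a mitochondrial cytochrome P450 that hydroxylates the side chain of cholesterol, was also higher in endometrium in 4 of 4 animals, as were 10.2% of all tested probes. It was detected in all 16 channels. Endometrial levels were 11.47, 7.63, 10.03 and 8.69 and blood levels 11.13, 6.34, 7.65 and 6.58. Animal 1 stood above the others in both tissues and had the smallest ratio. The ratios were 0.34, 1.29, 2.38 and 2.10, with a mean of 1.53 (SE 0.39, adjusted p = 0.262), a 2.88-fold difference that did not pass the adjustment. On the authors' scale the mean was 2.46 (SE 0.63, adjusted p = 0.167) and animal 1 again had the smallest ratio, 0.34. Without animal 1 the ratio with the offset was 1.92 (adjusted p = 0.419).

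FABP5, the epidermal type of fatty acid binding protein, was measured by 2 probes of the same accession (NM_174315), both detected in all 16 channels. The probe A_73_108876 had levels of 13.71, 9.63, 12.57 and 11.95 in endometrium and of 13.34, 9.43, 9.58 and 9.24 in blood. Its blood level in animal 1 lay far above the other blood levels. The ratios were 0.37, 0.20, 2.99 and 2.72, small in animals 1 and 2 and large in animals 3 and 4. Their mean was 1.57 (SE 0.59, adjusted p = 0.309), against 1.64 (SE 0.67, adjusted p = 0.30) in the authors' values.

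The probe A_73_121108 had levels of 9.77, 6.24, 9.79 and 9.30 in endometrium and of 10.75, 6.89, 7.43 and 7.56 in blood. Its ratios were -0.99, -0.66, 2.36 and 1.74, again split between animals 1 and 2 and animals 3 and 4. Here the first pair had more signal in blood, so the 2 probes disagree in sign in these animals. The mean was 0.61 (SE 0.66, adjusted p = 0.690), and 0.55 (SE 0.98, adjusted p = 0.826) with the authors' values. Across the 8 levels the 2 probes had r = 0.93, and A_73_108876 had r = 0.97 with CYP27A1.

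FABP3, the heart type, was detected in all channels and had a narrow range. Its levels were 7.38, 8.55, 8.25 and 7.59 in endometrium and 7.24, 8.75, 9.12 and 8.26 in blood. The ratios of 0.14, -0.20, -0.87 and -0.67 gave a mean of -0.40 (SE 0.26, adjusted p = 0.497). Animal 1, lowest in both tissues, was the only one with more FABP3 signal in endometrium. In the authors' values the mean was -0.50 (SE 0.47, adjusted p = 0.644).

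FABP4, the adipocyte and macrophage type, was detected in 2 of 8 endometrial channels, both of animal 1, and in 3 of 8 blood channels, of animals 1 and 2. The endometrial level was 7.55 in animal 1 and 6.01 to 6.09 in the others, and the blood levels lay between 5.93 and 6.46. Only animal 1 had a level apart from the rest, and no mean ratio is given. The adipocyte markers ADIPOQ and LEP were not well above background in any channel, and 3 of 9 genes of that list could be tested. Its summed level, of LIPE, ADIPOR2 and CFD, was 9.58 to 13.17 in endometrium and 10.45 to 13.85 in blood. The highest sums were those of animal 1 and were mostly CFD, at 12.96 in endometrium and 13.74 in blood.

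LPL, the lipase that releases fatty acid from lipoprotein triglyceride, differed between animals more than between tissues. Its signal was detected in 6 of 8 endometrial and 4 of 8 blood channels. Endometrial levels were 10.73, 10.43, 6.04 and 6.53, and blood levels 10.23, 6.90, 6.14 and 5.99. Animal 1 was high in both tissues, animal 2 in endometrium only, and animal 3 was not well above background in either. The ratios were 0.50, 3.53, -0.10 and 0.54, with a mean of 1.12 (SE 0.64, adjusted p = 0.446). Without animal 2 the mean was 0.31. The authors' values gave 1.97 (SE 1.1, adjusted p = 0.421), with 0.58, 4.81, -1.75 and 4.24 in the animals. Animal 4 was far from 0 on that scale and animal 3 below it. Both ratios rest on levels near background, since LPL was not detected in the blood of animal 4 or in either tissue of animal 3.

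**Figure D3:**
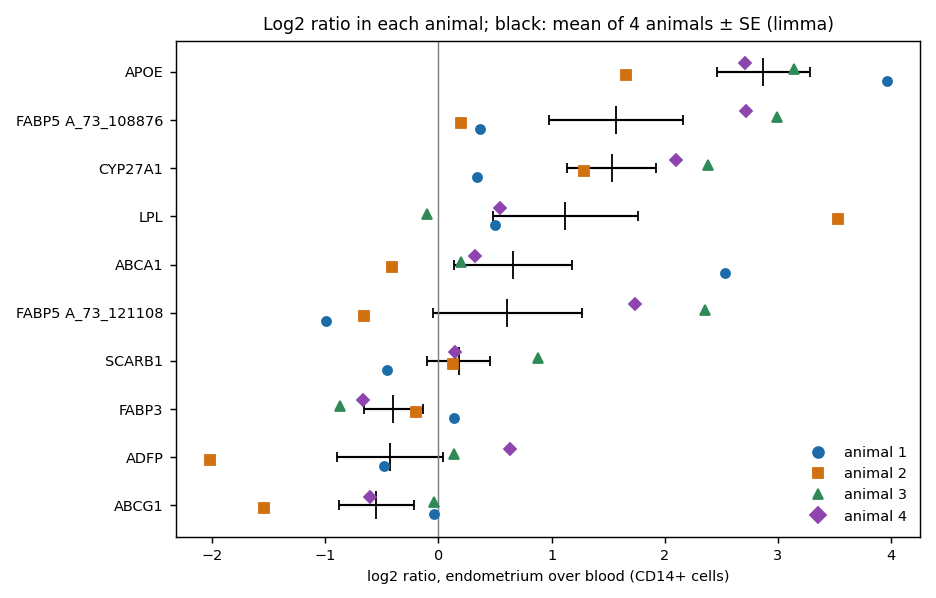
Log2 ratio of endometrium over blood (horizontal axis) of the 10 tested probes in each of the 4 animals, with the mean and SE of limma in black. The 4 points of APOE lie between 1.66 and 3.96, those of LPL, ABCA1 and ADFP each include 1 animal far from the other 3, and those of ABCG1 lie at or below -0.04.

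The sterol exporters did not share a direction. ABCA1 had endometrial levels of 8.90, 6.23, 6.41 and 6.62 and blood levels of 6.37, 6.64, 6.21 and 6.30, and was detected in 8 of 8 and 7 of 8 channels. Apart from the endometrial cells of animal 1, all levels lay within a narrow range with the offset. In the authors' values these other levels ran from 5.19 to 7.01. The ratios were 2.53, -0.41, 0.20 and 0.32, with a mean of 0.66 (SE 0.52, adjusted p = 0.569), or 1.30 (SE 0.96, adjusted p = 0.541) with the authors' values. Without animal 1 the mean was 0.04. The stromal markers had a summed level of 17.43 in the endometrial cells of animal 1 and of 11.77 to 14.09 in those of the others, and a median ratio of 4.72 in animal 1. Their part in the ABCA1 level was not tested.

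ABCG1 was the tested gene with the lowest ratio of those described here, and its signal was detected in all 16 channels. Its levels were 6.19, 6.42, 6.63 and 6.53 in endometrium and 6.23, 7.96, 6.67 and 7.13 in blood. With the offset the endometrial levels were nearly equal, and the blood levels of animals 2 and 4 were above them. In the authors' values, which spread dim probes more widely, the endometrial levels were 4.79, 6.08, 6.77 and 6.35. The blood levels there were 5.22, 9.36, 7.11 and 7.86. The ratios of -0.04, -1.54, -0.04 and -0.60 were below 0 in 4 of 4 animals, as for 14.7% of all tested probes. Their mean was -0.55 (SE 0.33, adjusted p = 0.461), and -1.39 (SE 0.62, adjusted p = 0.329) in the authors' values. The probes most like it over the 8 levels were ADRM1, BREH1 and SLC14A1, with r of 0.987, 0.979 and 0.971. With APOE it had r = -0.65 and with CYP27A1 r = -0.77.

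SCARB1, which takes up cholesterol ester from high density lipoprotein, was near background in most samples. It was well above it in animals 1 and 3 in endometrium and in animal 1 in blood. Endometrial levels were 6.22, 6.08, 7.12 and 6.10 and blood levels 6.67, 5.95, 6.24 and 5.94. With the offset, only the endometrial cells of animal 3 stood clearly above the rest. In the authors' values these cells had a level of 7.77 and the blood cells of animal 1 one of 7.00. The remaining levels there were 2.51 to 5.23. The ratios were -0.45, 0.13, 0.88 and 0.15, with a mean of 0.18 (SE 0.28, adjusted p = 0.805), and without animal 3 the mean was -0.06. With the authors' values, which spread dim probes more widely, it was 1.23 (SE 0.85, adjusted p = 0.512).

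ADFP, which coats lipid droplets, was detected in all 16 channels. Its levels were 11.41, 7.78, 12.57 and 10.44 in endometrium and 11.89, 9.80, 12.42 and 9.80 in blood. Animals 1 and 3 were high in both tissues, and animal 2 was lowest in endometrium. The ratios of -0.48, -2.02, 0.14 and 0.63 had both signs, with a mean of -0.43 (SE 0.47, adjusted p = 0.696) and of 0.10 without animal 2. The authors' values gave -0.52 (SE 0.62, adjusted p = 0.729). The 2 arrays of an animal differed by at most 0.05.

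**Figure D4:**
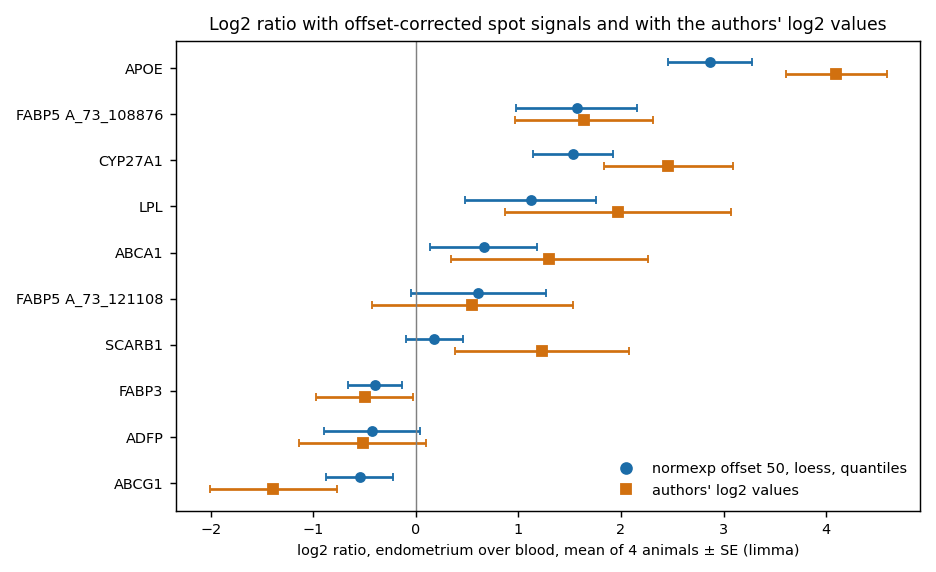
Log2 ratio (horizontal axis, mean of 4 animals ± SE of limma) of the 10 tested probes from spot signals corrected with an offset (blue circles) and from the authors' log2 values (orange squares). The sign is the same for 10 of 10 probes, and 9 of 10, all but the FABP5 probe A_73_121108, lie farther from 0 in the authors' values.

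Of 11 probes, 6 had their highest endometrial level in animal 1 and 6 their highest blood level, and 8 had their lowest endometrial level in animal 2. The animal with the most signal was the same in both tissues for 5 of the 11. How often all tested probes had these orders was not computed. The orders of FABP4 and SCARB1 rest partly on levels near background. Animal 1 was also the animal at the earliest day of pregnancy. Its blood cells had a summed level of granulocyte markers of 17.17, against 11.44 to 12.16 in the other blood samples. S100A8 (16.18) and S100A12 (15.89) had the highest values among these markers there and made up most of that sum. The other markers did not all go the same way. Among the blood samples, CSF3R was highest in animal 1 (12.79) and CCR3 lowest (6.45). CD14 was 14.24 in that sample against 6.30 to 7.63, and the monocyte and macrophage sum 17.38 against 13.19 to 13.95. Natural killer and T cell markers (11.97 against 15.05 to 16.18) and B cell markers (13.18 against 14.12 to 15.61) were lowest in it. The blood levels of FABP5, CYP27A1 and LPL in animal 1 were the highest in that tissue. The part of granulocytes, of monocytes or of day of pregnancy in these levels was not tested.

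Other genes of lipid handling were taken from 10 lists of 158 genes, of which 115 could be tested, and 0 were differentially expressed. At the unadjusted threshold 9 (7.83%) were higher in endometrium and 10 (8.70%) higher in blood, against 5.27% and 5.11% of all tested probes. The list medians ran from -0.14 to 0.50. With the authors' values CLU, MSR1 and SLC27A2 were differentially expressed.

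Among other apolipoproteins 7 of 16 could be tested, with a median of -0.06. Clusterin (CLU, apolipoprotein J) had the largest ratio, 4.35 (SE 0.77, adjusted p = 0.242), with 5.05, 1.42, 6.01 and 4.91 in the animals. APOO, a protein of mitochondria in spite of its name, followed with 0.48 (SE 0.33). Of 17 tested lipoprotein receptors, the class A scavenger receptor MSR1 had a ratio of 3.00 (SE 0.31, adjusted p = 0.0814), with the brighter of its 2 probes. The oxidized lipoprotein receptor OLR1 had one of -1.48 (SE 0.42, adjusted p = 0.262). These 2 receptors of modified lipoprotein had opposite signs in 4 of 4 animals.

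Of 10 tested lipases and transfer proteins, PLA2G7, the lipoprotein-associated phospholipase, had a ratio of -2.73 (SE 0.64, adjusted p = 0.262) and ABHD5, an activator of triglyceride lipase, one of -1.18 (SE 0.33). The mean ratio of LPL differed in sign from both, although LPL was at -0.10 in animal 3 and its mean was 0.31 without animal 2. The 8 other ABCA and ABCG transporters tested had a median ratio of 0.21, led by ABCG2 at 0.85 (SE 0.39) and ABCA5 at 0.31 (SE 0.56). In cholesterol trafficking and esterification, CAV1 of caveolae had a ratio of 1.83 (SE 0.80) and OSBPL1A, of the oxysterol binding protein family, one of 1.25 (SE 0.30), among 15 tested genes.

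Of the other fatty acid binding and acyl-CoA binding proteins 4 could be tested. FABP7, the brain type, had a ratio of 1.74 (SE 0.81) with 4.19 in animal 1 and -0.56 in animal 2. A probe that the files call DBI and the reference table calls ACBD5 had one of 1.08 (SE 0.53). Of 14 tested genes of lipid droplets and triglyceride synthesis, the lipase inhibitor G0S2 had a ratio of -1.75 (SE 0.64), with its blood level of animal 1 at 15.01 against 9.30 to 9.68 in the others. AGPAT1, an acyltransferase of glycerolipid synthesis, had one of 1.35 (SE 0.77). In fatty acid uptake and activation, with 15 tested genes, SLC27A2, an acyl-CoA synthetase of very long chain fatty acids, had a ratio of 2.25 (SE 0.64, adjusted p = 0.262). CPT1A, which starts fatty acid entry into mitochondria, had one of -2.23 (SE 0.58, adjusted p = 0.262), with -0.16 in animal 4 and -3.65 to -2.43 in the others.

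Of 10 tested oxysterol and bile acid enzymes other than CYP27A1, CH25H, which makes another oxysterol, had a ratio of 1.60 (SE 0.42, adjusted p = 0.262). It was above 0 in 4 of 4 animals, as CYP27A1 was, with 2.97, 0.70, 1.64 and 1.1. CYP2R1, a vitamin D hydroxylase, had a ratio of -0.61 (SE 0.35). Of 15 tested nuclear receptors and cofactors, NCOA1 had a ratio of -1.21 (SE 0.44) and PPARD one of -1.09 (SE 0.35). The LXR genes, singled out after their values were seen, had opposite signs in 4 of 4 animals. NR1H3 (LXR alpha) had ratios of 0.63, 1.25, 0.98 and 1.22, with a mean of 1.02 (SE 0.22), and NR1H2 (LXR beta) ratios of -1.26, -0.82, -1.17 and -0.75, with a mean of -1.0 (SE 0.22). Each had an adjusted p of 0.262.

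**Figure D5:**
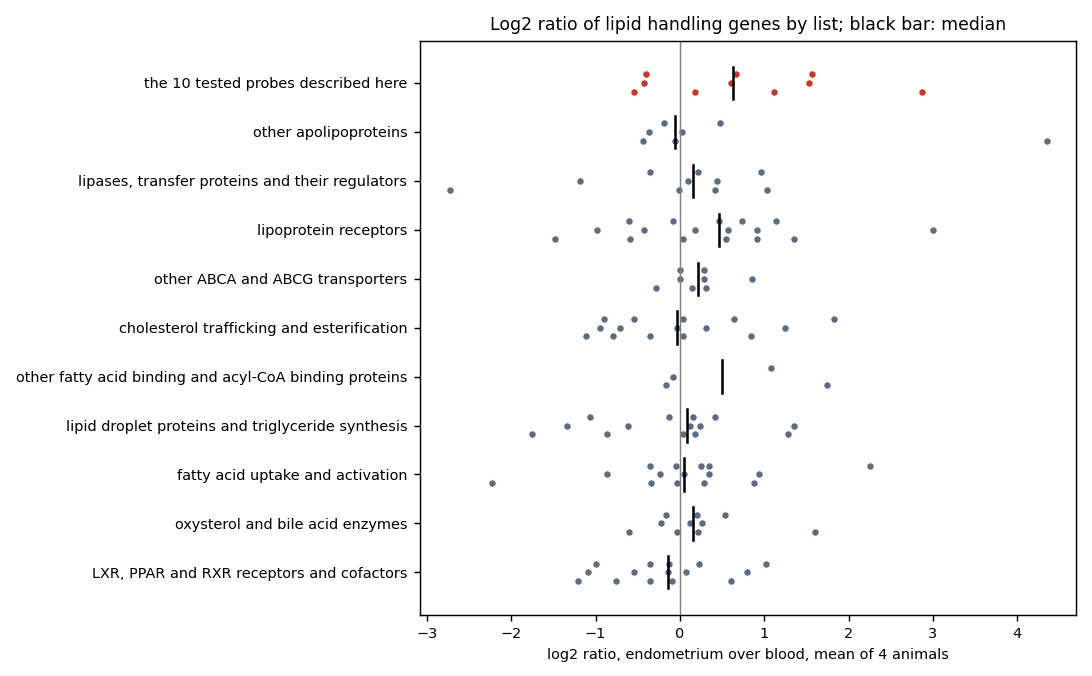
Log2 ratio of endometrium over blood (horizontal axis, mean of 4 animals) of the 10 probes described above (red) and of the tested genes of 10 lists of lipid handling (grey), with the median of each as a black bar. APOE (2.87), CLU (4.35) and MSR1 (3.00) lie at the right and PLA2G7 (-2.73) and CPT1A (-2.23) at the left.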

How the data were processed

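Scanner files deposited for 8 arrays with 2 colours hold the intensity of 44407 spots in either dye. The log2 values deposited beside them had been through lowess in each array and quantile scaling of all 16 channels. The labels name Feature Extraction 9.5, and the file headers give 10.5.1.1. Put on a column's own values by rank, with the 2 spots of a probe taken in either order, the processed signal equalled all 16 columns of log2 values at 100% of spots within 0.001 for the labeled dye in the file of the animal's other technical replicate, and at no more than 0.714% of spots for either dye in the file listed for the sample. The files were therefore exchanged between the replicates of an animal. Without the exchange, the ratios of animals 1, 2 and 4 would change sign. The authors' values, taken by the labels of their columns, do not depend on it.

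With limma 3.58.1 in R 4.3.3, median intensities of spots were corrected by normexp (offset 50), then loess within and quantile normalization across arrays were applied. Control spots and 3 to 20 outlier spots on an array were left out, and the spots of a probe were averaged. The log2 ratio of an animal is the mean of its 2 arrays. It was tested with lmFit and eBayes, with p adjusted by Benjamini and Hochberg over 16653 probes. Channels had median intensities of 48 to 402.75 and 65.2% to 82.9% of spots well above background. The number of arrays, and above all that of animals (4), limits the precision. The fit was tested on simulated data. An animal's tissues are paired by the labels (r of their deviations 0.618, 0.364, 0.209 and 0.465 in animals 1 to 4).

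The genes and lists were chosen with earlier results of these data known. Named from each lipid list were the 2 tested genes with the largest absolute ratio, from each marker list the 1 with the largest, and of several probes the brightest. Probe names were updated, where possible, from a gene table of RefSeq (ARS-UCD2.0). Alternatives changed the signal, normalization, filter, pairing, dye and slide terms, test and animals.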

Additional observations from a re-analysis of the deposited data

Results flagged for a closer look

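In 33 sets of 4 values, the endometrial levels, blood levels and log2 ratios of the 11 probes, Dixon's ratio of the gap to the whole range passed its 95% critical value in 5. For independent, normally distributed values chance gives about 1 in 20. These sets are not independent, since the ratios are computed from the levels, and some hold values near background. The share over all tested probes was not computed, so the 5 sets cannot be set against chance. The endometrial level of ABCA1 in animal 1 was 8.90, and in the other animals 6.23 to 6.62. For SCARB1 the endometrial level of animal 3 was 7.12, and the others had 6.08 to 6.22. FABP4 had an endometrial level of 7.55 in animal 1 and of 6.01 to 6.09 elsewhere, where it was not well above background. The FABP5 probe A_73_108876 had a blood level of 13.34 in animal 1 and of 9.24 to 9.58 in the others. At the FABP5 probe A_73_121108 the endometrial level of animal 2 was 6.24, below the 9.30 to 9.79 of the others.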

How the results depend on the processing

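Under 16 alternatives (15 for LPL and SCARB1, which the stricter filter on dim probes left out) the 10 probes kept the direction of their log2 ratio, except that ADFP was at 0.10 without animal 2 (-0.79 to 0.10 over the animals left out) and SCARB1 at -0.06 without animal 3 (-0.06 to 0.39). The count of the 10 probes that were differentially expressed was 0 and became 1, APOE, with the scanner's processed signal, with the authors' log2 values, and when the 8 arrays were the units, with a term for dye and a random block for animal. By the methods' analysis of variance on the authors' values it was 2 without adjustment, APOE and CYP27A1, and 0 with it. Over all tested probes, 11 were differentially expressed. That count became 224 with the processed signal, quantile normalized, and 224 with the authors' values, which have the same spot ranks and are not independent of it, 792 with the dye term, 44 with a stricter and 5 without a filter on dim probes, 5 with loess only, and 20 and 5 with the arrays of technical replicate 1 or 2 only. By the analysis of variance it was 1229 without and 0 with adjustment. Without the pairing of tissues as a replicate block it was 4, with 0 of the 10 probes among them, and the adjusted p of APOE was 0.372. Leaving out each animal in turn gave 0 to 0 among all tested probes and 0 to 0 among the 10. Over the alternatives with an adjusted p, that of APOE ran from 0.00177 to 0.531 and that of CYP27A1 from 0.0756 to 0.706. The causes were not tested. FABP4, SCARB1 and LPL were limited by signal near background, and FABP4 could not be tested.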
